A study of Homo sapiens with 4 samples.

Results

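MALAT1, NEAT1, H19, GAS5, SNHG1, SNHG5, SNHG8 and SNHG12 are 8 long noncoding RNA genes that were followed over 4 Affymetrix arrays of AGS cells, an established gastric adenocarcinoma line described by its submitters as gastric epithelial. Members were the probe sets whose platform annotation names exactly 1 of these genes, which gave 34 of 54675 probe sets. The LPS arrays came from cells kept for 8 h with lipopolysaccharide of Helicobacter pylori at 10 µg/ml (LPS, the glycolipid of the bacterial outer membrane). Their controls came from cells given fresh medium alone for the same 8 h. Each group held 2 arrays, numbered 1 and 2, and the submitters speak of 2 independent experiments without saying that a number marks one. A single cultured line stands for the gastric epithelium here, with no other cell type and no live bacteria. The genes were chosen by measured values of these arrays: the log2 levels of MALAT1 differed between the arrays numbered 1 and those numbered 2. Everything said below about replicate numbers is therefore a description with no test, and only the comparison of LPS with untreated cells was tested.

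Long noncoding RNAs act as RNA and encode no protein. MALAT1 is kept in the nucleus, where it lies in nuclear speckles, bodies rich in splicing factors. NEAT1 is the scaffold of paraspeckles, another kind of nuclear body that holds RNA-binding proteins. MALAT1 and the long form of NEAT1 end in a triple helix left by RNase P cleavage in place of a poly(A) tail. H19 is an imprinted RNA of the IGF2 locus and carries a miRNA, miR-675. GAS5, SNHG1, SNHG5, SNHG8 and SNHG12 are snoRNA host genes: their introns yield small nucleolar RNAs that guide rRNA modification, and the spliced remainder is often removed by nonsense-mediated decay.

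Of the 34 probe sets, 13 name a member gene alone, 12 of them MALAT1 and 1 GAS5. A further 20 name a member together with small RNAs, and all 24 small RNAs so named lie inside the host gene on GRCh38.p14. These 20 are called by the host gene below, although the annotation cannot say whether the host or a small RNA was meant. The last, 220983_s_at, is annotated as NEAT1 but was designed on a transcript that RefSeq assigns to SPRY4. It read 4.24 to 4.40 and was left out, so that 33 probe sets were described. MALAT1 had 12 of them, NEAT1 had 8, GAS5 had 5, SNHG12 had 3, H19 had 2, and SNHG1, SNHG5 and SNHG8 had 1 each.

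MALAT1 lies on chromosome 11 at 65497738 to 65506516 of GRCh38.p14, and NEAT1 on the same arm at 65422798 to 65445540, 52.2 kb away. H19 spans 1995176 to 2001266 and SNHG1 spans 62851978 to 62855885, both on chromosome 11. GAS5 spans 173863901 to 173869045 and SNHG12 spans 28578538 to 28582983 on chromosome 1. SNHG8 lies on chromosome 4 at 118278762 to 118279823, and SNHG5 on chromosome 6 at 85677007 to 85678733.

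The sequences around annotated transcription starts are shown because they are a feature of the members that did not enter their choice. RefSeq start windows on GRCh38.p14 were found for 7 of the 8 genes, with 2 starts for MALAT1. Each window runs from 50 bases before the start over the 50 bases that begin with it. Capitals mark TATAA, the core of the TATA box, which was searched on both strands (as TTATA on the reverse strand).
MALAT1, first start, chr11:65497688-65497787, plus strand: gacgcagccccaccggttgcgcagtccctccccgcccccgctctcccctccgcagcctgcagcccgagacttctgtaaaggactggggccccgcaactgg
MALAT1, second start, chr11:65498995-65499094, plus strand: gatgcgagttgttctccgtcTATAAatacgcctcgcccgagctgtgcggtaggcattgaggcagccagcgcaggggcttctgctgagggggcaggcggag
SNHG5, chr6:85678684-85678783, minus strand: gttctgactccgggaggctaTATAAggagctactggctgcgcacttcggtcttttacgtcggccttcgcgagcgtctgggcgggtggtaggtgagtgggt
SNHG8, chr4:118278712-118278811, plus strand: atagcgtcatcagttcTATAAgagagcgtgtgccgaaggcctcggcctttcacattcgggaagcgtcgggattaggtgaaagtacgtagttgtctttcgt
SNHG12, chr1:28581824-28581923, minus strand: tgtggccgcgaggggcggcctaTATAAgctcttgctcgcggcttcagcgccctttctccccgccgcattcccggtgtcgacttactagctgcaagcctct

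TATAA began 30 bases before the second MALAT1 start, 30 before that of SNHG5, 34 before that of SNHG8 and 28 before that of SNHG12. The first MALAT1 start, GAS5 and H19 had no match in their windows, and SNHG1 had only the reverse form, 40 bases after its start. In all, 5 of the 8 member windows held a match on either strand, against 8.3% of the 35116 RefSeq start windows of the same length. A match in letters is not a shown binding site.

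The miRNA named with the H19 probe sets is shown with its seed (bases 2 to 8) in capitals. It is cut from H19 on the minus strand, and the arrays do not measure the mature forms.
hsa-miR-675-5p, chr11:1996800-1996822: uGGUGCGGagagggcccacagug
hsa-miR-675-3p, chr11:1996768-1996787: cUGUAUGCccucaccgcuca

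All 4 arrays had medians of 6.31 to 6.36 on the log2 scale over the 54613 probe sets that are not controls. The epithelial keratin genes KRT8, KRT18 and KRT19 and the adhesion gene EPCAM averaged 12.51 to 14.40, and TFF1, GATA6, MUC1 and CLDN4 averaged 10.05 to 12.16. Of the 10 gastric epithelial markers, 8 reached the median over genes of 7.25, and CLDN18 (6.91) and TFF2 (5.97) did not. The leukocyte markers PTPRC, CD3E, CD14 and LST1 averaged 4.88 to 7.12, all below that median. Their summed level was 8.18 and 8.31 on the LPS arrays, against 8.27 and 8.24 on the untreated arrays. Of the 7 fibroblast and endothelial markers, 1 reached that median, as did 1 of the 2 red cell markers measured. In bulk RNA, fewer cells of a type and less RNA per cell cannot be told apart.

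With LPS, none of the member genes rose or fell by the test. The test compared the 2 LPS arrays with the 2 untreated arrays by limma, which borrows the spread of all probe sets, with Benjamini-Hochberg adjustment and a threshold of 0.05. Of the 13 probe sets that name a member alone, 0 passed (adjusted p = 1 for each), beside 0.0% of the 41091 probe sets with 1 gene symbol. At an unadjusted p under 0.05 there were also 0, beside 2.68% of those 41091. The other 20 were tested among all 54613 probe sets, where 0 passed as well and the smallest unadjusted p of a member was 0.208 (limma), beside 2.6% under 0.05. The differences ran from -0.30 to 0.22 on the log2 scale, with a median of 0.07 over the 33 probe sets and 23 above 0. Over all 19775 genes the median was 0.02, and 56.5% lay above 0. For a single probe set the exact permutation test (two-sided, n = 2 arrays a group) cannot reach a p under 0.33. The submitters speak of 2 independent experiments, but nothing in the labels ties each array to a culture of its own. The p-values therefore measure only the spread between these arrays.

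The brightest MALAT1 probe set, 1558678_s_at, read 13.96 and 13.23 on LPS arrays 1 and 2, against 13.81 and 13.26 on untreated arrays 1 and 2. Both arrays numbered 1 were high and both numbered 2 were low, so that the treatment groups overlapped. Its LPS difference was 0.06 ± 0.27 (SE) on the log2 scale, a fold of 1.05 with a 95% interval of 0.67 to 1.63. MALAT1 had overlapping groups on all 12 probe sets, and 8 of the 12 differences lay above 0. Intervals were wide where the numbers were far apart: on 228582_x_at, where the LPS difference was -0.30, the fold could lie anywhere from 0.28 to 2.39. The narrowest MALAT1 interval, on 224558_s_at, ran from 0.82-fold to 1.44-fold.

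Within the arrays numbered 1, the LPS array read above the untreated array on 10 of 12 MALAT1 probe sets, with differences of -0.37 to 0.44 and a median of 0.16. Within the arrays numbered 2 it read above on 3 of 12, with differences of -0.37 to 0.13 and a median of -0.05. The sign of the LPS difference changed between the pairs on 7 of the 12 MALAT1 probe sets. The LPS array lay above in both pairs on 3 and below in both on 2.

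NEAT1 did not pass with LPS either. Its brightest probe set, 224565_at, read 12.77 and 12.64 on LPS arrays 1 and 2, against 12.79 and 12.65 on untreated arrays. The 4 values lay within 0.16 of each other and the groups overlapped. Its fold was 0.99 with a 95% interval of 0.86 to 1.14. Over the 8 NEAT1 probe sets the LPS difference ran from -0.16 to 0.13, and 3 lay above 0. On 1 of them, 239269_at, the LPS arrays (6.87 and 6.76) both lay above the untreated arrays (6.73 and 6.64), a difference of 0.13 ± 0.12 (SE).

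H19 was at 12.33 and 12.60 in LPS-treated cells and at 12.17 and 12.54 in untreated cells on its brighter probe set, 224646_x_at. Arrays of the same number again stood closer to each other than arrays of the same treatment, here with number 2 as the higher one. The fold with LPS was 1.08 (95% interval 0.84 to 1.39). On 224997_x_at H19 read 9.94 and 10.17 with LPS, against 9.97 and 10.07 without, a fold of 1.02 (0.84 to 1.25).

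None of the snoRNA host genes passed the test. GAS5, named for its rise in growth-arrested cells and known to bind the glucocorticoid receptor, read 13.84 on both LPS arrays, against 13.77 and 13.82 on the untreated arrays (224741_x_at). On its next probe set, 224841_x_at, it read 13.44 and 13.45 with LPS, against 13.39 on both untreated arrays. The LPS arrays lay above the untreated arrays on both, by 0.04 ± 0.05 and 0.06 ± 0.06 (SE) on the log2 scale. The intervals were 0.94 to 1.13-fold and 0.94 to 1.15-fold. All 5 GAS5 probe sets had differences of 0.04 to 0.08, the other 3 with overlapping arrays.

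SNHG1, host of snoRNAs that include SNORD22 and SNORD25 to SNORD31, read 12.08 and 12.10 with LPS, against 12.00 and 12.04 without. Its groups did not overlap, and the fold was 1.05 (95% interval 0.93 to 1.19). SNHG8, host of SNORA24, read 13.17 and 13.09 with LPS, against 13.03 and 13.10 without, a fold of 1.05 (0.93 to 1.18) with overlapping arrays. SNHG5, host of the SNORD50 pair, was the host gene with a difference below 0. It read 12.75 and 13.06 with LPS, against 13.02 and 12.99 without, so that LPS array 1 alone was low and the fold was 0.93 (0.77 to 1.12).

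SNHG12, host of SNORA16A, SNORA44 and SNORA61, had the smallest unadjusted p of the members. On 223773_s_at it read 11.09 and 10.83 with LPS, against 10.84 and 10.76 without. LPS array 1 was high and the other arrays lay within 0.09 of each other. The difference was 0.16 ± 0.12 (SE), a fold of 1.12 with a 95% interval of 0.92 to 1.36 (limma, unadjusted p = 0.208, adjusted p = 1). It was 0.03 without LPS array 1 and 0.29 without LPS array 2. The other SNHG12 probe sets differed by 0.09 and 0.15, and on these the LPS array lay above in the arrays numbered 1 (by 0.35 and 0.37) and below in those numbered 2 (by -0.17 and -0.08).

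Over all members, the LPS arrays lay wholly above the untreated arrays on 4 of 33 probe sets, beside 17.6% of all 54613 probe sets, and wholly below on 0 of 33, beside 11.9%. Either way that was 4 of 33, beside 29.5%. The 95% interval stayed within 2-fold either way on 25 of the 33 and within 1.5-fold on 19.

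**Figure D1:**
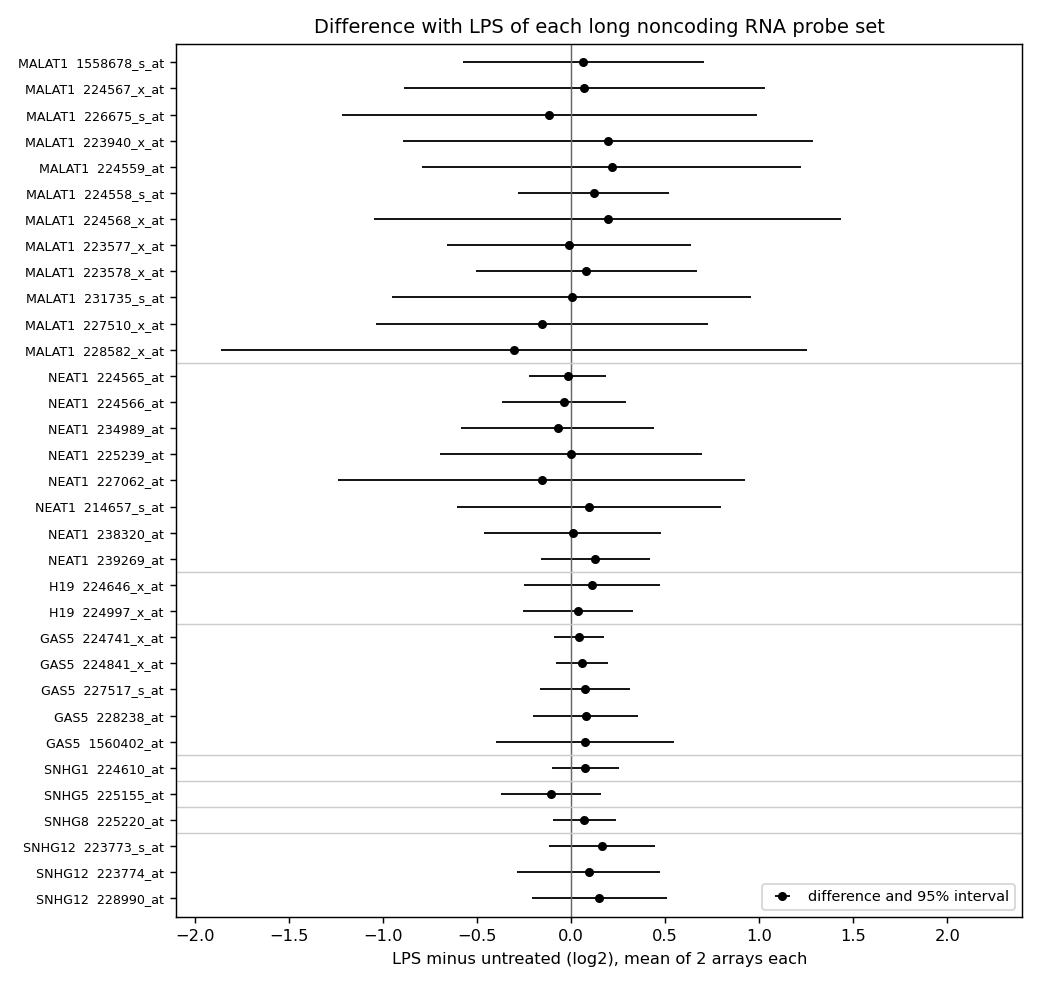
Difference of each probe set between LPS and untreated arrays on the log2 scale (points, n = 2 arrays each) with its 95% limma interval (bars). All 33 intervals cross 0. Those of MALAT1 are wide beside those of SNHG1, SNHG8 and the GAS5 probe sets other than 1560402_at.

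The arrays differed by replicate number in MALAT1, for which it was chosen. All 12 MALAT1 probe sets read higher on both arrays numbered 1 than on both numbered 2, beside 20.6% of all probe sets. The gaps were 0.28 to 1.59 on the log2 scale, or 1.21-fold to 3.02-fold, with a median of 0.95. At least 1.5-fold apart were 10 of the 12, beside 1.56% of all probe sets that were so without overlap, and at least 2-fold apart were 5, beside 0.216%. Nothing is read from these shares, since this difference chose the gene.

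Among the MALAT1 probe sets, 228582_x_at had the widest gap. It read 7.56 and 7.93 on LPS and untreated arrays numbered 1, against 6.03 and 6.27 on those numbered 2. The next, 224568_x_at, read 10.18 and 9.92 on the arrays numbered 1 (LPS, untreated), against 8.85 and 8.73 on those numbered 2. On 226675_s_at the arrays numbered 1 read 11.71 and 11.58, against 10.36 and 10.73 for number 2, again LPS before untreated. These 3 gaps were 1.59, 1.26 and 1.10.

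The smallest MALAT1 gap was that of 224558_s_at. Its arrays numbered 1 read 9.90 with LPS and 9.60 untreated, against 9.44 and 9.51 for the arrays numbered 2. The untreated arrays were 0.10 apart there and the LPS arrays 0.46 apart. The LPS arrays were farther apart than the untreated ones on 10 of 12 MALAT1 probe sets, with a median gap of 1.09 within LPS and 0.84 within untreated arrays. By the kind of probe set, the gap ran from 0.54 to 1.59 over 7 that end in _x_at and from 0.28 to 1.10 over 4 that end in _s_at, and it was 1.02 on the 1 ending in _at alone. The endings _x_at and _s_at mark probe sets whose probes can match more than 1 transcript.

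**Figure D2:**
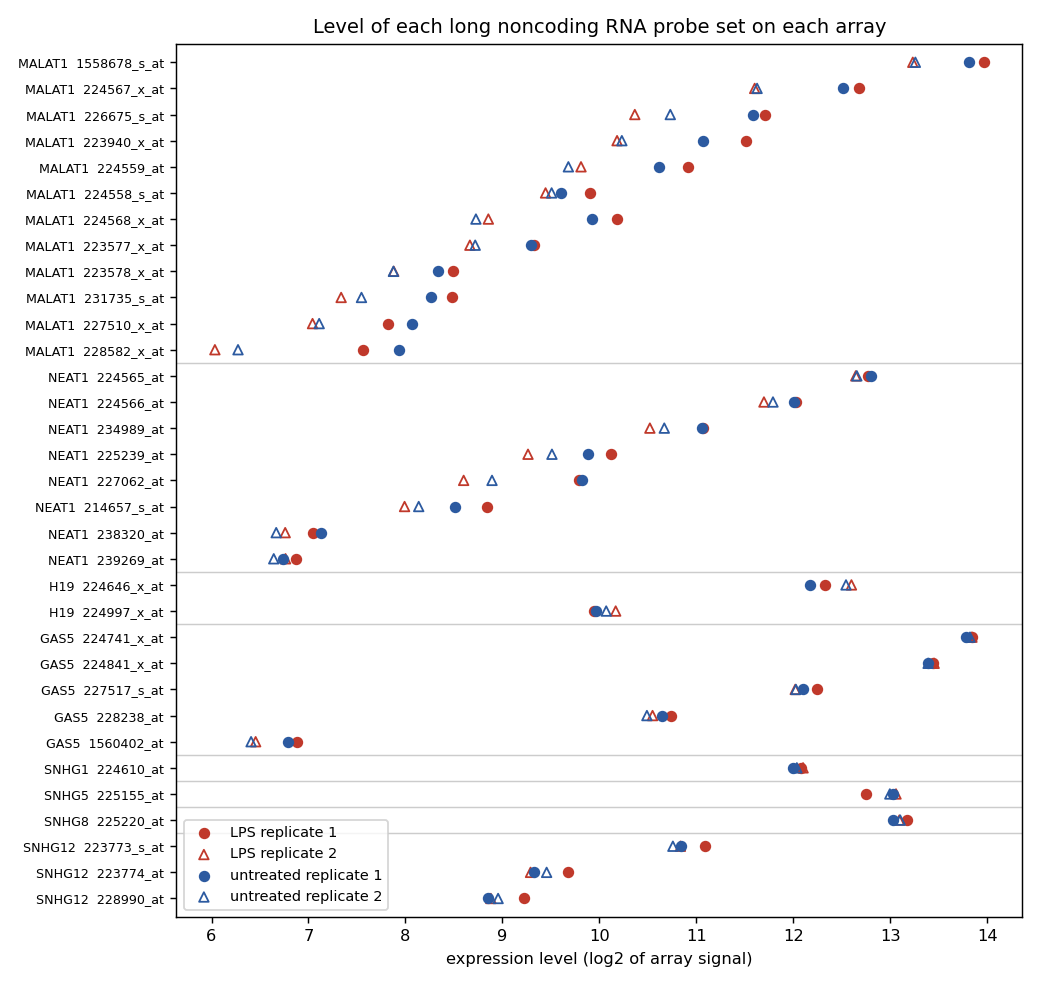
Log2 expression level of the 33 probe sets (rows, by gene) on each array: LPS in red, untreated in blue, number 1 as filled circles, number 2 as open triangles. For MALAT1 the circles of both colours lie right of the triangles on all 12 rows, while colours mix.

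NEAT1, the chromosomal neighbour, had the same direction with a smaller size. The arrays numbered 1 read above those numbered 2 without overlap on 7 of 8 probe sets, beside 20.6% of all probe sets. The gaps over the 8 ran from 0.10 to 1.06, with a median of 0.42. The widest was on 227062_at, which read 9.79 and 9.82 on LPS and untreated arrays numbered 1, against 8.60 and 8.89 on those numbered 2. The brightest, 224565_at, had a gap of 0.13. NEAT1 probe sets thus differed among themselves from 1.07-fold to 2.08-fold, and 3 of the 8 were at least 1.5-fold apart, beside the 1.56% of all probe sets given above.

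H19 went the other way: both of its probe sets read lower on the arrays numbered 1, by -0.32 and -0.17. GAS5 was at -0.02 and 0.00 on its 2 brightest probe sets, at 0.15 on 227517_s_at, at 0.18 on 228238_at and at 0.40 on its dimmest, 1560402_at. On the last 3 of these number 1 lay above without overlap. The dimmest read 6.88 and 6.79 on LPS and untreated arrays numbered 1, against 6.46 and 6.41 on those numbered 2. SNHG1 (-0.03), SNHG5 (-0.14) and SNHG8 (0.00) had overlapping numbers. SNHG12 had gaps of 0.12 to 0.17, with overlap on 2 of its 3 probe sets. Over the 33 probe sets, 23 lay above on number 1 and 2 below without overlap, beside 20.6% and 27.5% of all probe sets. On 0 of the 33 was number 1 at least 1.5-fold lower, beside 0.0311%. These counts, too, belong to the difference that chose MALAT1.

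**Figure D3:**
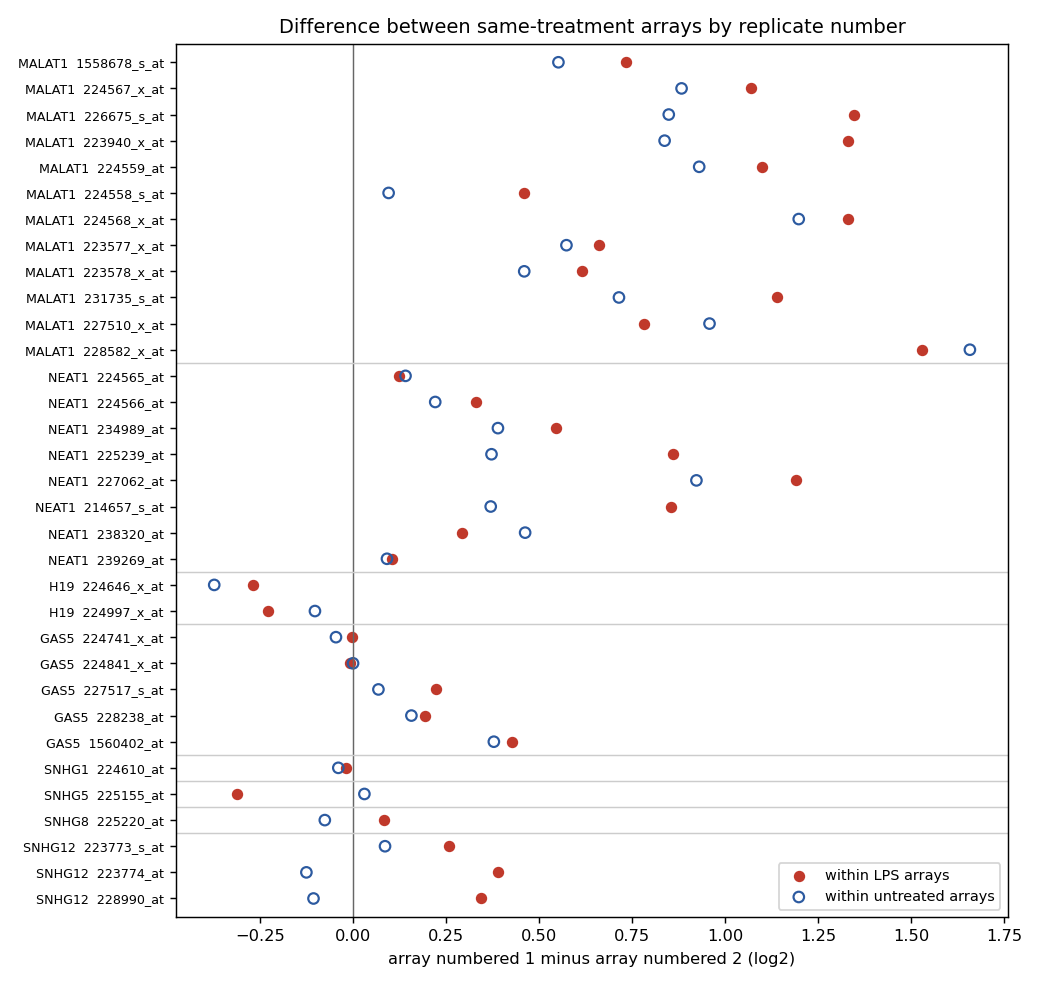
Array numbered 1 minus array numbered 2 on the log2 scale, within LPS arrays (filled red) and within untreated arrays (open blue), for each probe set. MALAT1 gaps lie between 0.10 and 1.66 in both treatments, those of NEAT1 between 0.09 and 1.19, and both H19 probe sets lie below 0.

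Some control probe sets, those of 18S rRNA and the spike-ins, averaged higher on the arrays numbered 1. The 3 probe sets of 18S rRNA averaged 9.89 and 10.07 on LPS and untreated arrays numbered 1, against 7.98 and 8.12 on those numbered 2. The 12 poly-A spike-in probe sets averaged 8.27 and 8.80 on number 1, against 7.59 and 7.71 on number 2, LPS first. The 9 hybridisation spike-in probe sets averaged 11.03 and 10.33 on number 1, against 10.22 and 10.14 on number 2. Other controls did not follow: number 1 minus number 2 was -0.01 (3′) and 0.01 (5′) for GAPDH and 0.09 for Alu. ACTB was lower on number 1, by -0.13 (3′) and -0.34 (5′). GAPDH 3′ to 5′ differences of 0.26 to 0.39 overlapped between the numbers, while those of ACTB were 1.04 and 1.09 on number 1, against 0.76 and 0.94 on number 2. Their part in the MALAT1 and NEAT1 gaps was not tested. What a number stands for is not stated in the labels.

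**Figure D4:**
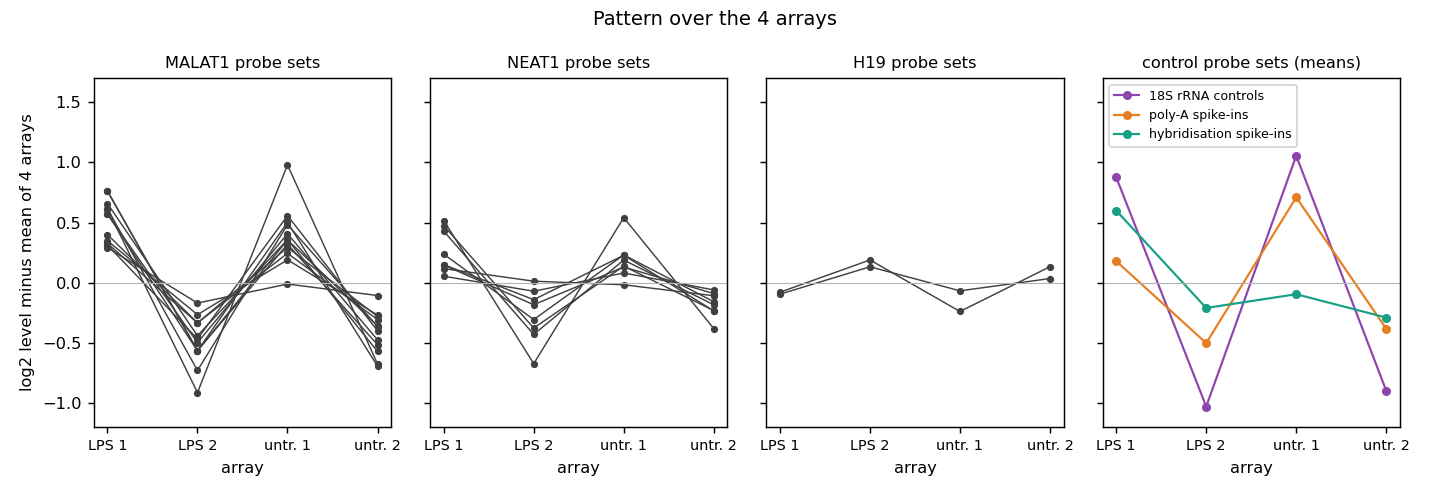
Log2 level minus the mean of the 4 arrays, for each MALAT1, NEAT1 and H19 probe set and for the means of 3 kinds of control probe sets. Lines only join the points of 1 probe set or control, and the 18S controls are high on both arrays numbered 1, as MALAT1 is. The GAPDH, Alu and ACTB controls, with number 1 minus number 2 from -0.34 to 0.09, are not drawn.

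Genes whose 4 array values moved most like the brightest MALAT1 probe set were ranked by the Euclidean distance of centred log2 values over the 4 arrays, among all genes other than members. The 5 nearest were XPO7, a nuclear transport receptor gene (distance 0.03), SEC14L1 (0.03), SLC7A1, a cationic amino acid transporter gene (0.04), SART3, a spliceosome recycling factor gene (0.04), and SMCHD1, a chromatin protein gene (0.04). Their gaps between arrays numbered 1 and 2 were 0.62 to 0.67, beside 0.64 for MALAT1. In each of the 5 genes this was 1 probe set of 3 to 6, and no other probe set of the gene was 1.5-fold higher on number 1. Another probe set of MALAT1 itself, 223577_x_at, stood at a distance of 0.09, and the nearest of NEAT1, 214657_s_at, at 0.16. With 4 arrays such likeness is a description only.

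No other snoRNA host gene passed the test with LPS. Of 22 listed, 11 had a probe set of their own, and 0 passed the test in either direction (limma, adjusted), beside 0.0% of 19775 genes. At an unadjusted p under 0.05 there were 0 higher and 0 lower, beside 0.966% and 1.26%. Their median difference was 0.09 and 8 of 11 lay above 0. SNHG32 read 12.71 and 12.58 with LPS, against 12.41 and 12.52 without, a difference of 0.18 ± 0.08 (SE, limma, unadjusted p = 0.069, adjusted p = 1). SNHG17 had a difference of 0.15 ± 0.09, and of 0.15 on the dimmer of its probe sets. ZFAS1, the brightest of the list, differed by 0.07 ± 0.08. By replicate number 0 of these 11 genes were 1.5-fold apart, beside 0.283% of all genes with number 1 higher.

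Of 30 other long noncoding RNA genes listed, 26 were measured, 0 passed, and their median difference with LPS was 0.00. TUG1 read 11.81 and 11.58 with LPS, against 11.50 and 11.49 without, a difference of 0.20 ± 0.10 (SE). Its other probe sets ran from -0.07 to 0.19. DLEU2 differed by -0.25 ± 0.13, and all 7 of its probe sets lay below 0. NORAD, a cytoplasmic RNA that binds Pumilio proteins, differed by 0.00 ± 0.07 and UCA1 by -0.06 ± 0.09. None of TUG1, DLEU2, NORAD and UCA1 passed (limma, adjusted p = 1 for each).

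By replicate number, 5 of the 71 probe sets of these 26 genes were at least 1.5-fold higher on the arrays numbered 1 without overlap, beside 1.41% of all probe sets with 1 symbol. They belonged to DLEU2 (3 probe sets, gaps of 0.59 to 0.79), NORAD (1, 0.81) and FTX (1, 0.64), named after their values were seen. The brightest NORAD probe set had a gap of 0.08. As with MALAT1, probe sets of 1 gene differed among themselves by replicate number.

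Genes that work with the members did not pass with LPS either. Of the nuclear speckle and splicing proteins, 5 of 18 had differences above 0, with a median of -0.06, beside 56.5% and a median of 0.02 over all genes. U2AF2, which binds the polypyrimidine tract at the 3′ splice site, read 11.17 and 11.14 with LPS, against 11.38 on both untreated arrays. That was a difference of -0.23 ± 0.08 (SE, limma, unadjusted p = 0.0338, adjusted p = 1), and its other probe sets ran from -0.06 to 0.21. U2AF2 was the 1 gene of the 18 with an unadjusted p under 0.05 (limma), beside 0.966% higher and 1.26% lower of all genes. Its partner U2AF1 differed by 0.12 ± 0.07. By replicate number these 18 genes had a median gap of 0.03.

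The paraspeckle proteins built onto NEAT1 had a median LPS difference of 0.00 over 15 genes, with HNRNPM at -0.09 and RUNX3 at 0.13, and a median gap by number of 0.03. The level of RUNX3 (6.29) lay below the median over genes. Nonsense-mediated decay factors had a median of 0.06 over 8 genes, with the exon junction genes RBM8A at 0.11 and EIF4A3 at 0.10. The snoRNP proteins had 0.03 over 12 genes, with the assembly factor NAF1 at -0.28 and the core protein NOP58 at -0.15. RNase P and RNA methylation genes had 0.06 over 12 genes, with the RNase P subunit gene RPP25 at 0.26 and the methyltransferase gene METTL14 at -0.19 (-0.04 by the mean over its probe sets). In each of these lists 0 genes passed the adjusted test (limma), beside 0.0% of all genes. At an unadjusted p under 0.05 there were 0 as well, beside 0.966% higher and 1.26% lower of all genes, so that counts near 0 are the background for lists of this size.

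The genes of the H19 and IGF2 network had a median LPS difference of -0.02 over 15 genes, with CDKN1C, an imprinted cell-cycle inhibitor, at 0.20 and SLC38A4 at -0.16. CDKN1C (5.78) and SLC38A4 (3.94) lay below the median level over genes. The glucocorticoid receptor and its targets, listed for GAS5, had -0.04 over 7 genes, with ZBTB16 at 0.22 and KLF9 at -0.28. ZBTB16 (5.565) also lay below the median level over genes. The other KLF9 probe sets ran from -0.09 to 0.12, and the mean over its probe sets was -0.02. Protein-coding neighbours of MALAT1 and NEAT1 had -0.05 over 8 genes, with FRMD8 at -0.22 and ZNRD2 at -0.11. The mean over the FRMD8 probe sets was -0.04. In these lists too, 0 genes passed the adjusted test (limma), beside 0.0% of all genes, and 0 had an unadjusted p under 0.05, beside 0.966% higher and 1.26% lower. By replicate number 0 of these 8 neighbours were at least 1.5-fold higher on number 1, beside 0.283% of all genes. Their gaps ran from -0.30 to 0.23.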

How the data were processed

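The authors deposited log2 expression values of 54675 probe sets. MAS5 and RMA are listed in the submitters' processing notes, with no role or version. Background and normalization settings are not given in the sources used here. Minima of 3.19 to 3.28 and like medians have the form of RMA output, which compresses differences of dim probe sets. No array value was changed further.

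Probe sets were named through the platform annotation and the gene number. Of those that are not controls, 41091 had 1 symbol, 1801 several and 11721 none. RefSeq gave coordinates and sequences on GRCh38.p14. The LPS comparison used lmFit and eBayes of limma 3.58.1 under R 4.3.3 (intensity trend, two-sided, no covariate). Probe sets with 1 symbol were adjusted together. A fit over all 54613, for probe sets that name several, and the count of members at an unadjusted p were chosen after seeing the data. Group values rest on 2 arrays each, and their number limits the precision. Lists use the brightest probe set with 1 symbol. Named were all member probe sets, 2 genes per list by smallest p, the 3 brightest of both noncoding lists and the 5 most like MALAT1. FTX was an exception. Members and lists were chosen with earlier results of these data known.

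On simulated data for this comparison (10 sets, 200 of 41091 probe sets changed), limma recovered 1.8% of those changed 1.5-fold, 53.0% at 2-fold and 92.1% at 3-fold. The simulated noise was independent between arrays, with a spread drawn from limma's estimate over these probe sets. In the real data, same-numbered arrays deviated together (r = 0.54 across probe sets). MALAT1 and NEAT1 probe sets differed by number, so these shares need not hold for them. Alternatives were quantile normalization, a level filter, 1 value per gene by 2 rules, no _x_at or _s_at probe sets, no trend, a replicate block and leaving out each array. Figures used matplotlib 3.10.9.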

Additional observations from a re-analysis of the deposited data

How the results depend on the processing

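Under 12 other settings 0 of the member probe sets tested alone (13, fewer by the per-gene rules and without _x_at and _s_at) and 0 probe sets overall passed the adjusted threshold (limma). The other 20 (fewer without _x_at and _s_at) were run under 9 settings, where 0 passed. With 1 array left out, the lone array is assumed to vary like the other group. Counts at an unadjusted p under 0.05 moved: of the 13 probe sets that name a member alone, 2 passed with the replicate block and 0 to 4 when 1 array was left out, against 0 as reported. The 4 came without LPS replicate 2 and 1 came without LPS replicate 1, and all of them were MALAT1 probe sets. Over all 41091 probe sets that count was 1102, against 3006 with the replicate block and 316 to 3031 with 1 array left out. It was 455 with the level filter, 559 with the brightest probe set per gene and 466 with the mean per gene, where fewer were tested. Same-numbered arrays deviated together (r = 0.54 across probe sets), but the labels do not say what a number marks, and 2 pairs cannot show it. Of the members, only 13 probe sets entered the planned test, and with 2 arrays a group a change under 2-fold would mostly be missed. On MALAT1 probe sets with wide intervals a larger change could be missed as well.

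Leaving out 1 array turned the sign on 12 of 12 MALAT1 and 7 of 8 NEAT1 probe sets, and each such value rests on an unequal mix of replicate numbers. The median over the 13 was 0.07 as reported and ran from -0.47 to 0.46. For MALAT1 the LPS difference ran from -0.30 to 0.43 on 1558678_s_at, -0.47 to 0.60 on 224567_x_at, -0.79 to 0.56 on 226675_s_at, -0.47 to 0.86 on 223940_x_at, -0.34 to 0.77 on 224559_at, -0.11 to 0.35 on 224558_s_at, -0.47 to 0.86 on 224568_x_at, -0.34 to 0.32 on 223577_x_at, -0.23 to 0.39 on 223578_x_at, -0.57 to 0.57 on 231735_s_at, -0.64 to 0.32 on 227510_x_at, -1.13 to 0.53 on 228582_x_at. For GAS5 the LPS difference ran from -0.14 to 0.28 on 1560402_at, -0.041 to 0.18 on 227517_s_at, -0.020 to 0.17 on 228238_at. For NEAT1 the LPS difference ran from -0.089 to 0.052 on 224565_at, -0.20 to 0.13 on 224566_at, -0.34 to 0.20 on 234989_at, -0.43 to 0.43 on 225239_at, -0.75 to 0.44 on 227062_at, -0.33 to 0.52 on 214657_s_at, -0.22 to 0.24 on 238320_at. For H19 the LPS difference ran from -0.078 to 0.29 on 224646_x_at, -0.079 to 0.15 on 224997_x_at. For SNHG5 the LPS difference ran from -0.26 to 0.048 on 225155_at. For SNHG12 the LPS difference ran from -0.10 to 0.29 on 223774_at, -0.022 to 0.32 on 228990_at. The sign held on the remaining 6 of the 33 in every setting run, but 57 of 61 LPS differences of named genes and probe sets moved by over 1.5 times in some setting. KLF9 ran from -0.48 to -0.081 and FRMD8 from -0.34 to -0.096 with 1 array left out. Quantile normalization turned 223577_x_at to 0.0081 and 231735_s_at to -0.0055 (MALAT1), and 225239_at to 0.0049 and 238320_at to -0.0141 (NEAT1). Among other genes, leaving out 1 array gave -0.049 to 0.045 for NORAD, -0.061 to 0.092 for SEC14L1, -0.018 to 0.16 for XPO7, -0.037 to 0.18 for ZFAS1. For SEC14L1, XPO7, SART3, SLC7A1 and SMCHD1 the difference checked here was that of the brightest probe set, not the one like MALAT1. It was 0.016, 0.069, -0.072, -0.116 and -0.346, in that order. The mean over a gene's probe sets turned CDKN1C to -0.0154, RBM8A to -0.0229, SART3 to 0.0025, SEC14L1 to -0.0220, SLC7A1 to 0.0437 and ZFAS1 to -0.0020. For these the cause was not tested.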
